A study of Homo sapiens with 8 samples.

Results

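The genes examined here are those of the mitogen-activated protein kinase (MAP kinase) pathway and the immediate early genes that it induces. They were chosen by symbol: RAS genes, RAS exchange factors and RAS GTPase-activating proteins, the MAP4K, MAP3K, MAP2K and MAPK families with their scaffolds, the RPS6K kinases, the DUSP phosphatases, the SPRY and SPRED inhibitors, and the FOS, JUN, EGR, IER and ATF3 genes. This choice gave 44 of the 3666 genes in the authors' table. The study measured messenger RNA in MIA PaCa-2, an established human pancreatic ductal adenocarcinoma cell line; a label gives its cell type as adenoma. Cells were wild type and untreated apart from a short exposure to medium with lactate, followed by washout, that the sort required of every cell. A fluorescence-activated sort then separated a fraction with low permeability to lactic acid (PHLac-low) from a fraction with high permeability (PHLac-high). There were 4 libraries of each fraction, paired by repeat, so each change below is PHLac-high over PHLac-low. Both fractions come from the same line and are models of variation within that line only. Each library is bulk RNA, so more cells carrying a transcript and more transcript per cell cannot be told apart.

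Signals from growth factor receptors load RAS with GTP, and RAS starts a relay in which a MAP3K phosphorylates a MAP2K and the MAP2K phosphorylates a MAPK. The terminal kinases fall into the ERK, JNK and p38 branches, of which ERK answers mainly to growth factors and JNK and p38 mainly to stress. Within minutes they switch on immediate early genes, many of which encode subunits of the AP-1 transcription factor, and later they switch on their own inhibitors, the DUSP phosphatases and the SPRY and SPRED proteins. In pancreatic ductal adenocarcinoma this pathway is known for being persistently active.

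Every gene in the authors' table had passed their test of the same contrast, with no deposited adjusted p above 0.05, so passing a test again is a description and not a finding about these genes. Values are normalised counts, which are reads divided by a size factor of each library. The 44 genes had mean normalised counts from 76.1 to 22995 and never fewer than 27 reads in a library. Reads in all listed genes ranged from 8979276 to 23176205 per library. In limma with the repeat as a block, all 44 passed a Benjamini-Hochberg adjusted p of 0.05 over the whole table, as did 99.9% of the listed genes. Of the 44, 25 rose and 19 fell, against 58.7% of the listed genes called higher and 41.2% called lower, so the share that rose is near that of the table. Without the block 21 members passed, 14 as higher and 7 as lower, beside 31.0%, 20.3% and 10.7% of the listed genes. Without repeat 1 it was 41 members, beside 94.6% of the listed genes, and without repeat 2 it was 43, beside 94.7%. The labels do not say whether repeats were separate cultures, so p-values measure only the spread between these samples.

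Among the classes, which were fixed by gene symbol, the immediate early genes leaned upwards most: 8 of 9 rose, and JUNB alone fell. DUSP1, which fell, was classed with the feedback inhibitors. Of 22 other early response genes in the authors' table, described below, 15 rose and 7 fell. The feedback inhibitors were split evenly, with 6 of 12 higher and 6 lower, and the kinases and RAS regulators were split 10 to 7. All 3 scaffold genes fell, but with a correction for GC content and length MAPK8IP2 (0.058) and MAPK8IP3 (0.015) turned positive without passing and MAPKBP1 was at -0.21. The median log2 change was 0.50 for the immediate early genes, 0.0089 for the feedback inhibitors, 0.24 for the kinases and RAS regulators and -0.43 for the scaffolds, beside 0.25 for all listed genes. Under upper-quartile scaling the first 3 of these medians were 0.28, -0.22 and 0.016, beside 0.021 for all listed genes. That scaling used the listed genes alone, as did the GC correction. The median of the immediate early genes was 0.92 with the GC correction and 0.32 without repeat 1. Within repeats 1 to 4 the median of the immediate early genes was 0.88, 0.63, 0.40 and 0.45, against 0.22, 0.18, 0.17 and 0.20 for all listed genes. The same medians of the feedback inhibitors were -0.022, -0.055, -0.085 and 0.035. Because the median of the table is itself above 0, each gene can also be read against it: 8 of 9 immediate early genes, 6 of 12 feedback inhibitors and 8 of 17 kinases and RAS regulators changed by more than the listed median, a count that a common rescaling of the libraries does not alter. The values of the 2 fractions did not overlap for 13 members that rose and for 7 that fell, beside 23.3% and 13.4% of the listed genes. The direction was the same in all 4 repeats for 42 of 44 members and for 96.1% of the listed genes, and the exceptions were FOSL2 and EGR4.

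**Figure D1:**
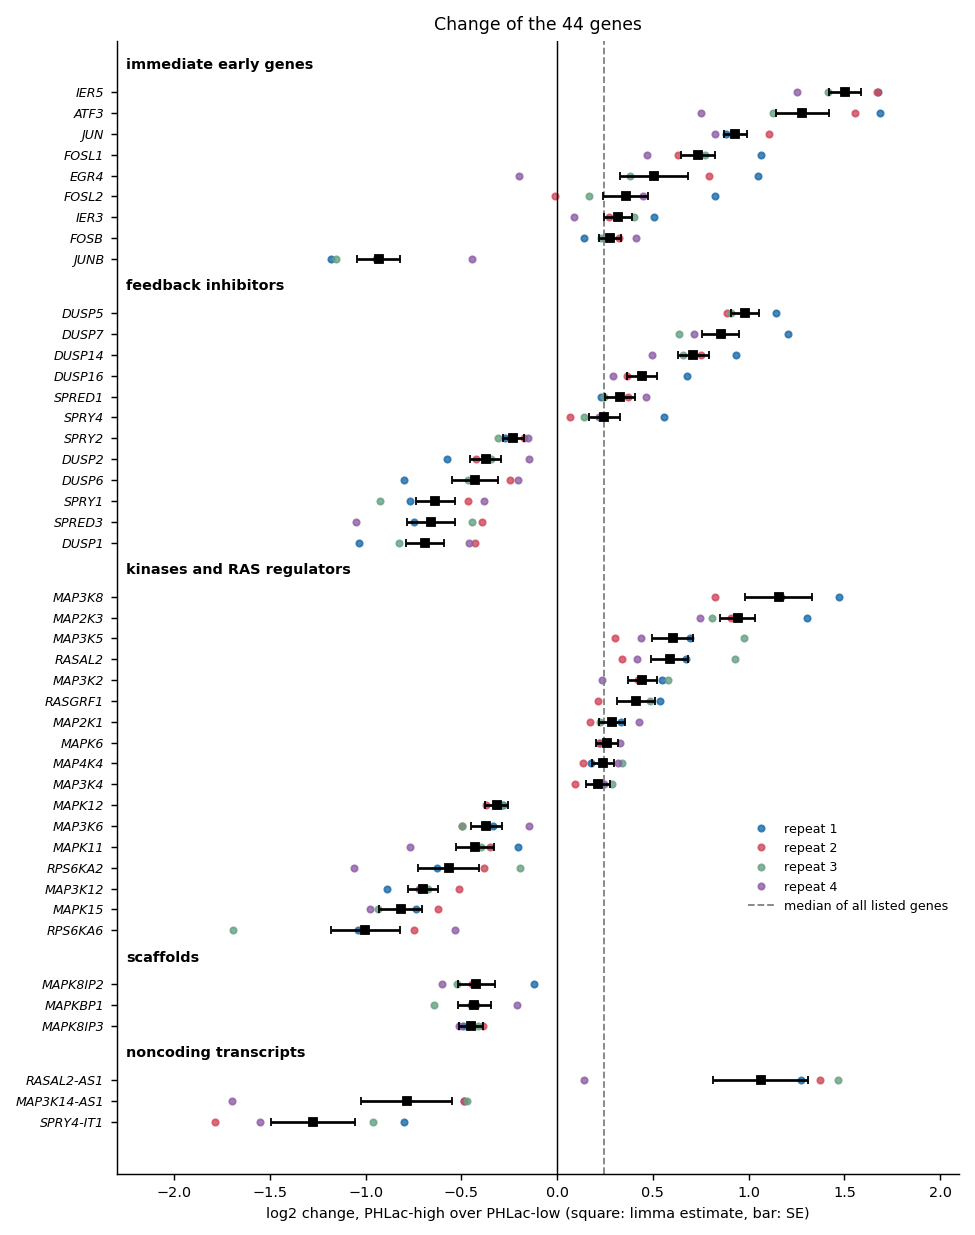
Log2 change of each of the 44 genes, PHLac-high over PHLac-low, by class. Squares are limma estimates with their standard errors, coloured points are the changes within repeats 1 to 4, and the dashed line is the median of all listed genes at 0.25; 8 of the 9 immediate early genes lie to its right and JUNB lies at -0.93.

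The AP-1 subunits moved in opposite directions. JUN (Entrez 3725), which encodes the c-Jun subunit of AP-1 and is a substrate of JNK, had 15679, 17008, 16606 and 13698 normalised counts in repeats 1 to 4 of PHLac-low. In the PHLac-high libraries JUN had 28849.6, 36625, 31210.0 and 24287. Every PHLac-high value lay above every PHLac-low value, and JUN rose by 0.93 ± 0.059 (SE, log2, adjusted p = 2.53e-05 from limma). JUNB (Entrez 3726), a JUN relative that often restrains c-Jun at shared sites, had 29786, 28294, 24145 and 8924 in PHLac-low and 13161, 14660.4, 10863 and 6551 in PHLac-high. The fractions overlapped because the PHLac-low library of repeat 4 was far below the other PHLac-low libraries, yet JUNB was lower in PHLac-high in 4 of 4 repeats. Its log2 change was -0.93 ± 0.11 (SE, adjusted p = 0.000249 from limma), and without the block the adjusted p of limma was 0.0792.

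Within a library the ratio of JUN to JUNB does not depend on the size factor. It was 0.526, 0.601, 0.688 and 1.53 in PHLac-low and 2.19, 2.50, 2.87 and 3.71 in PHLac-high, for repeats 1 to 4. All 4 PHLac-high ratios exceeded all 4 PHLac-low ratios, and the pair was chosen after its values were seen. Levels of different genes are compared per kilobase of the longest coding transcript in GENCODE 29. On that scale JUNB stood highest of the 9 immediate early genes in PHLac-low, at 12520.4 ± 5245 normalised counts per kilobase (SD, n = 4), ahead of FOSB at 5352 ± 1374, IER3 at 4520.1 ± 721, JUN at 4448 ± 417 and FOSL1 at 4158 ± 897. In PHLac-high JUN stood highest, at 8543 ± 1450.4 per kilobase, followed by FOSL1 at 6803 ± 612, FOSB at 6426 ± 1429.8 and JUNB at 6214 ± 1943. The neighbours named in both orders had overlapping values; for JUNB and FOSB in PHLac-low this came from repeat 4, where JUNB had 4903 and the libraries of repeats 1 to 3 had 13266 or more per kilobase.

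**Figure D2:**
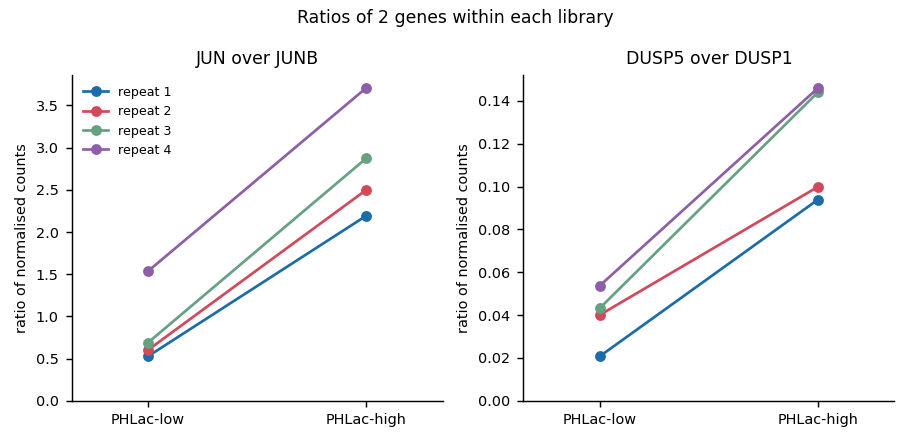
Ratio of the normalised counts of JUN to JUNB (left) and of DUSP5 to DUSP1 (right) within each library, on axes that start at 0. Lines join the libraries of a repeat; the JUN to JUNB ratio lay between 0.526 and 1.53 in PHLac-low and between 2.19 and 3.71 in PHLac-high.

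The FOS family members that were listed all rose. FOSL1, which encodes the AP-1 subunit FRA1 and is a late target of ERK, had 4926, 8232, 6689 and 7908 normalised counts in PHLac-low and 10316, 12732, 11405 and 10966 in PHLac-high. Its values did not overlap, and its log2 change was 0.73 ± 0.089 (SE, adjusted p = 0.000264 from limma). FOSB had 23662, 23692, 20761 and 12704 in PHLac-low and 26119, 29678, 24369 and 16873 in PHLac-high, which is higher within each repeat although the fractions overlapped. The log2 change of FOSB was 0.28 ± 0.058 (SE, adjusted p = 0.0028 from limma), close to the listed median of 0.25. FOSL2, which encodes FRA2, rose by 0.36 ± 0.12 (SE, log2, adjusted p = 0.0165 from limma). By repeat, in order, FOSL2 changed by 0.82, -0.0093, 0.17 and 0.45, so repeat 2 showed no rise, and without repeat 1 it did not pass (limma adjusted p = 0.0633). Under upper-quartile scaling FOSB was at 0.052 and FOSL2 at 0.13, and neither passed. FOS itself, EGR1, EGR2, EGR3, IER2 and JUND were not analysed here.

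IER5 and ATF3 had the largest increases among the immediate early genes. IER5, a gene known to promote the activity of the heat shock factor HSF1, had 1274, 1447, 1591 and 2129 normalised counts in PHLac-low and 4063, 4614, 4243 and 5075 in PHLac-high. The fractions were far apart, and IER5 rose by 1.50 ± 0.082 (SE, log2, adjusted p = 1.27e-05 from limma). ATF3, a stress-induced partner of JUN in AP-1 dimers, had 2098, 2545, 4443 and 1638 in PHLac-low and 6752, 7489, 9712 and 2753 in PHLac-high. The 2 fractions overlapped for ATF3, because its PHLac-high library of repeat 4 lay below the PHLac-low library of repeat 3, but within repeats its log2 change was 1.69, 1.56, 1.13 and 0.75. Its estimate was 1.28 ± 0.14 (SE, log2, adjusted p = 0.000167 from limma). IER3, whose product is an ERK substrate involved in cell survival, had 4645, 6627, 6615 and 6522 in PHLac-low and 6589.8, 8000.3, 8745 and 6942 in PHLac-high. The fractions of IER3 overlapped slightly, and its log2 change was 0.32 ± 0.072 (SE, adjusted p = 0.0039 from limma). EGR4, a zinc finger gene, had 536, 772, 615 and 755 in PHLac-low and 1108, 1337, 800.4 and 657 in PHLac-high. It was higher in repeats 1 to 3 and lower in repeat 4, with a log2 change of 0.50 ± 0.18 (SE, adjusted p = 0.0208 from limma). The call for EGR4 was lost without repeat 1 (limma adjusted p = 0.0917) and without repeat 2 (limma adjusted p = 0.108).

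**Figure D3:**
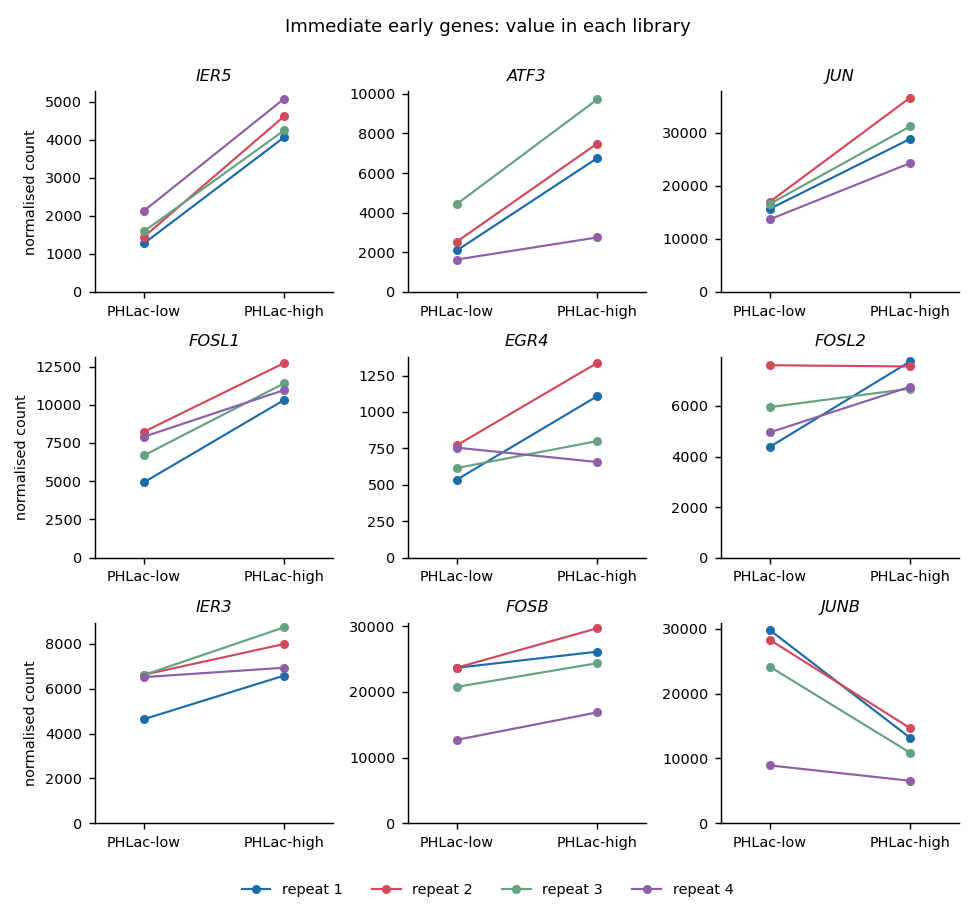
Normalised count of each of the 9 immediate early genes in PHLac-low and PHLac-high, on axes that start at 0, with a line for each repeat. The lines rise in every repeat for IER5, ATF3, JUN, FOSL1, IER3 and FOSB and fall in every repeat for JUNB, whose PHLac-low library of repeat 4 had 8924.

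Promoter windows of RefSeq (GRCh38.p14, 250 bases before to 50 bases after the transcript start) were available for 38 of the 44 genes. They are shown for 5 stress-responsive genes described here, picked after their values were seen: JUN, ATF3 and IER5, which rose, and JUNB and DUSP1, which fell. Other members with a window changed by more than some of these, MAP3K8 and RPS6KA6 among them. Capitals mark matches to the motifs searched on both strands: the cyclic AMP response element TGACGTCA, the AP-1 element TGANTCA, the JUN-type AP-1 site TGACATCA, the heat shock element GAANNTTC, the ETS element CCGGAAGT and the CArG box of serum response elements. No printed match overlaps another. Which transcript start these cells use was not examined for any gene.
JUN (chr1:58783998-58784297, minus strand): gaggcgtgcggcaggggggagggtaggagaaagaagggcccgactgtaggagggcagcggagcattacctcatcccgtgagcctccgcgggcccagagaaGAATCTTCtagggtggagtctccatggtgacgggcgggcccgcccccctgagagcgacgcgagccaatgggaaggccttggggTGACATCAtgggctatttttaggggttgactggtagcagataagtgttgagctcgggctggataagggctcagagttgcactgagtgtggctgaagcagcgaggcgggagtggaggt
ATF3 (chr1:212565157-212565456, plus strand): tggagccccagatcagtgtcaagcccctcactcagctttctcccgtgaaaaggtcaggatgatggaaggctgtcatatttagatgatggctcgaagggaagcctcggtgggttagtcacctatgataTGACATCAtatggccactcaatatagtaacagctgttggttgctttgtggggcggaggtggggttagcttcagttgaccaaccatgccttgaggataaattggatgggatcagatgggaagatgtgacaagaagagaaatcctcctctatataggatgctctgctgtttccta
IER5 (chr1:181088450-181088749, plus strand): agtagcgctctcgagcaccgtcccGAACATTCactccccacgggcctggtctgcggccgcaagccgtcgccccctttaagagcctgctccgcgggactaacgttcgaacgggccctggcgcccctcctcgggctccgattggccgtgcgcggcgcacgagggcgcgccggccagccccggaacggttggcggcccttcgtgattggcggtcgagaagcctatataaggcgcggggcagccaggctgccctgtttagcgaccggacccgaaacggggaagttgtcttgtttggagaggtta
JUNB (chr19:12791236-12791535, plus strand): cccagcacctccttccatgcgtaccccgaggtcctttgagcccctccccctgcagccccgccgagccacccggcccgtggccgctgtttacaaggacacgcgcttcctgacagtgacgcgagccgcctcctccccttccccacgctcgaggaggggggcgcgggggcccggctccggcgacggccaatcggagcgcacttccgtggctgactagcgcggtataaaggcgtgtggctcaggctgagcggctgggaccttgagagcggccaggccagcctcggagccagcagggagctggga
DUSP1 (chr5:172771146-172771445, minus strand): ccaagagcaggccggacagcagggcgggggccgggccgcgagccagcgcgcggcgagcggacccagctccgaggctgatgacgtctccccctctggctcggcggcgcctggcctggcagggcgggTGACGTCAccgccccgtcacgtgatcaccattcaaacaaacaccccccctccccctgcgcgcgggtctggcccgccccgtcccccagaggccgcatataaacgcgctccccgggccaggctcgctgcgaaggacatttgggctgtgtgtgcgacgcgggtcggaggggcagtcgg

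The windows of JUN and ATF3 each hold the JUN-type site TGACATCA, from 67 to 60 bases before the start in JUN and from 123 to 116 bases before it in ATF3. Of the 38 member windows only these 2 hold this site, which is in 2.71% of all 27305 windows, and the site was added to the search after these windows had been read. JUN also holds a heat shock element of the form GAATCTTC from 150 to 143 bases before the start, and IER5 holds GAACATTC from 226 to 219 bases before it. Such an element was found in 3 of 38 member windows (7.89%; the third is MAP4K4), near its share of 6.87% of all windows. All 3 genes rose, but of the 38 genes with a window 21 rose and 17 fell. MAP4K4 rose by 0.24, no more than the listed median, and did not pass under upper-quartile scaling. The cyclic AMP response element was found in DUSP1, from 125 to 118 bases before the start, and in MAPK8IP3, both of which fell (MAPK8IP3 was at 0.015 with the GC correction). It is in 1.98% of all windows. The AP-1 element was found in MAP2K3 and FOSL2, which rose, and SPRED3, which fell, and in 7.76% of all windows. The CArG box (1.29% of all windows) was found in RPS6KA2 and the ETS element (4.44%) in MAPK8IP3. The window of JUNB holds none of these letters. Median GC content was 71% in member windows and 58.33% in all windows, so these shares are not matched for base composition. Among 2691 windows of listed genes (median GC 66%) the cyclic AMP response element was in 3.38% and the AP-1 element in 5.65%. The JUN-type site was in 1.86% of them, the heat shock element in 5.2%, the ETS element in 8.03% and the CArG box in 1.11%. Matches describe the sequence and do not show binding. The ATF3 window lies at the upstream end of a gene annotated from 212565334 to 212620777 on chromosome 1. Whether the ATF3 transcripts counted here begin at that start or further into the gene was not tested. The site in its window therefore cannot be tied to the rise of ATF3.

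The 6 DUSP genes classed here as phosphatases of MAP kinases split into 3 that rose and 3 that fell, and DUSP14, classed apart, also rose. DUSP1 (Entrez 1843), which encodes a nuclear phosphatase of JNK, p38 and ERK, had 33064, 26642, 27856 and 14475 normalised counts in PHLac-low and 16125, 19767, 15693 and 10528 in PHLac-high. As for JUNB, the PHLac-low library of repeat 4 was the lowest of its fraction, and DUSP1 fell within each of 4 repeats. Its log2 change was -0.69 ± 0.10 (SE, adjusted p = 0.000561 from limma), and without the block the limma adjusted p was 0.0684. DUSP2, another nuclear phosphatase, fell by 0.37 ± 0.082 (SE, log2, adjusted p = 0.00328 from limma), and with the GC correction it was at -0.052 and did not pass. DUSP6, a cytoplasmic phosphatase specific to ERK, had 396, 537, 583 and 433 in PHLac-low and 227, 453, 422 and 376 in PHLac-high, with a log2 change of -0.43 ± 0.12 (SE, adjusted p = 0.00784 from limma). The fractions overlapped for both DUSP2 and DUSP6.

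DUSP5, DUSP7 and DUSP16 rose. DUSP5, a nuclear phosphatase specific to ERK, had 686, 1067, 1204 and 777 normalised counts in PHLac-low and 1514, 1974, 2260.5 and 1537 in PHLac-high, a log2 change of 0.98 ± 0.072 (SE, adjusted p = 4.26e-05 from limma). DUSP7, a cytoplasmic ERK phosphatase closely related to DUSP6, had 1073, 1476, 1298 and 1803 in PHLac-low and 2476, 2676, 2018 and 2955 in PHLac-high, and it rose by 0.85 ± 0.095 (SE, log2, adjusted p = 0.000192 from limma). For DUSP5 and DUSP7 no PHLac-high library fell to the level of a PHLac-low library. DUSP16, which acts mainly on JNK and p38, had 1372, 1548, 1717 and 1301 in PHLac-low and 2193, 1996, 2332 and 1591 in PHLac-high. It rose by 0.44 ± 0.077 (SE, log2, adjusted p = 0.00129 from limma), with overlapping fractions. DUSP14, an atypical member of the family, had 1091, 1201, 1126 and 1333 in PHLac-low and 2087, 2026, 1774 and 1880.0 in PHLac-high and rose by 0.71 ± 0.082 (SE, log2, adjusted p = 0.000208 from limma). The ratio of DUSP5 to DUSP1 within a library was 0.0208, 0.0401, 0.0432 and 0.0537 in PHLac-low and 0.0939, 0.0999, 0.144 and 0.146 in PHLac-high, without overlap, and this pair too was chosen after its values were seen.

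**Figure D4:**
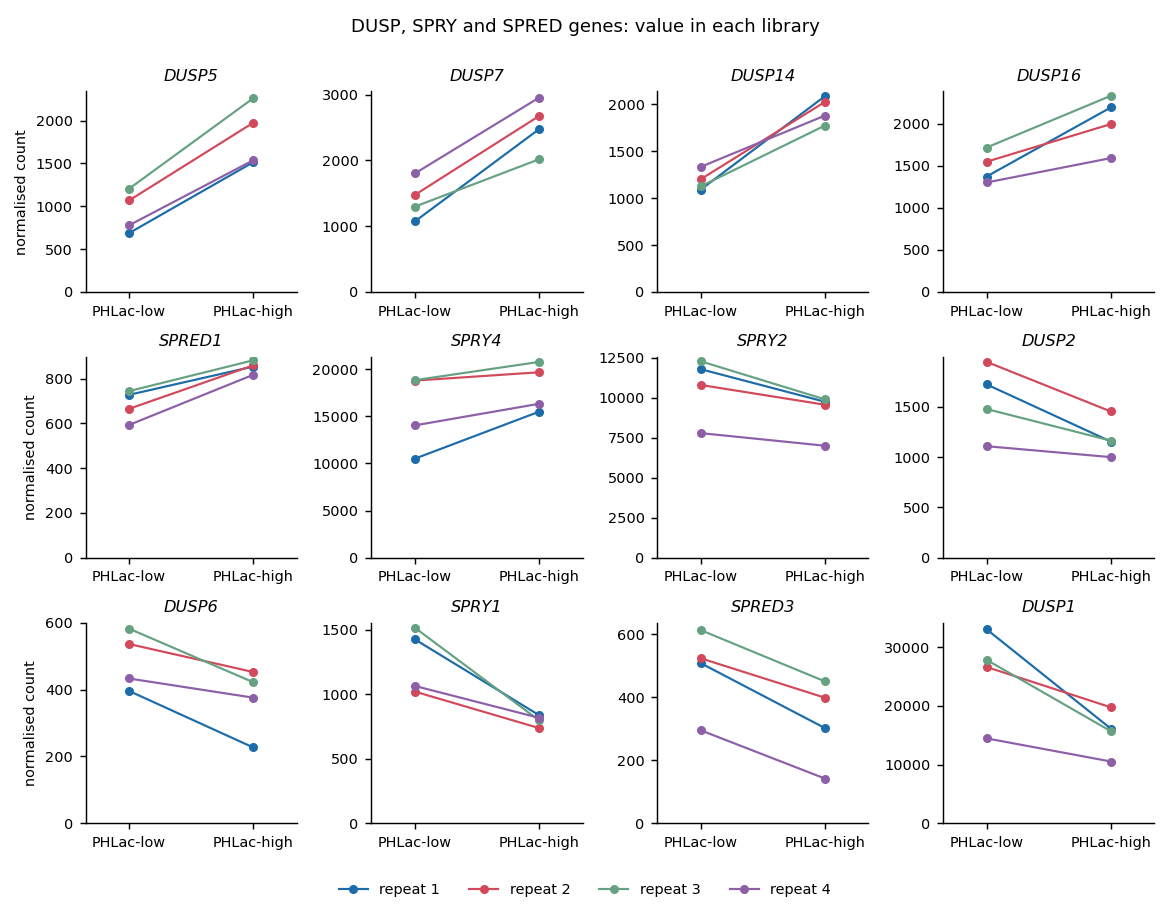
Normalised count of each DUSP, SPRY and SPRED gene in PHLac-low and PHLac-high, on axes that start at 0, with a line for each repeat. Panels are ordered by log2 change, from DUSP5 at 0.98 to DUSP1 at -0.69; the 6 genes that rose and the 6 that fell each did so in all 4 repeats.

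The SPRY and SPRED genes, whose products block RAS signalling at the membrane, also split. SPRY1 had 1425, 1020.4, 1515 and 1064 normalised counts in PHLac-low and 837, 737, 797 and 817 in PHLac-high. The SPRY1 values of the 2 fractions did not overlap, and it fell by 0.64 ± 0.10 (SE, log2, adjusted p = 0.000858 from limma). SPRY2 had 11776, 10789.7, 12269 and 7781 in PHLac-low and 9739.7, 9553, 9890.0 and 6992 in PHLac-high. Both libraries of repeat 4 were the lowest of their fraction, and the log2 change was -0.23 ± 0.053 (SE, adjusted p = 0.00411 from limma). SPRY4 had 10511, 18799, 18844 and 14044 in PHLac-low and 15498, 19683, 20784 and 16339 in PHLac-high, with overlap and a log2 change of 0.25 ± 0.080 (SE, adjusted p = 0.015 from limma). Without repeat 1 SPRY4 did not pass (limma adjusted p = 0.0774). SPRED1, which brings the RAS GTPase-activating protein neurofibromin to the membrane, had 727, 665, 744 and 593 in PHLac-low and 854, 859, 882 and 817 in PHLac-high. It rose by 0.33 ± 0.079 (SE, log2, adjusted p = 0.00473 from limma), without overlap, and was at 0.18 without passing under the GC correction. SPRED3 had 508, 523, 612 and 295 in PHLac-low and 302, 398, 449.7 and 142 in PHLac-high. As for SPRY2, repeat 4 was the lowest in both fractions, and SPRED3 fell by 0.66 ± 0.13 (SE, log2, adjusted p = 0.00195 from limma). With the GC correction the change of SPRED3 was -0.38. SPRY3, SPRED2, DUSP4, DUSP8, DUSP9 and DUSP10 were not analysed here.

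At the top of the kinase relay, the listed regulators of RAS and 4 of the 6 listed MAP3K genes rose (MAP3K4 turned to -0.013 under upper-quartile scaling). RASAL2, a RAS GTPase-activating protein, had 1756, 1869.7, 1681 and 2341 normalised counts in PHLac-low and 2798, 2366, 3196 and 3121 in PHLac-high and rose by 0.59 ± 0.10 (SE, log2, adjusted p = 0.00102 from limma). RASGRF1, a RAS exchange factor, rose by 0.41 ± 0.10 (SE, log2, adjusted p = 0.00483 from limma), with overlap between the fractions. MAP3K8, the kinase TPL2 that activates MEK, had 40.3, 83.7, 71.0 and 35.9 in PHLac-low and 113, 149, 159.8 and 82.1 in PHLac-high. These values rest on 35 to 148 reads a library, the fractions overlapped slightly, and the log2 change was 1.16 ± 0.17 (SE, adjusted p = 0.000662 from limma). MAP3K5, the stress-activated kinase ASK1, had 1068, 1307, 991 and 840.1 in PHLac-low and 1728, 1613, 1950.3 and 1137 in PHLac-high and rose by 0.60 ± 0.11 (SE, log2, adjusted p = 0.00151 from limma). MAP3K2, the kinase MEKK2, rose by 0.45 ± 0.077 (SE, log2, adjusted p = 0.00128 from limma). MAP3K4, with a log2 change of 0.21, and MAP4K4, with 0.24, rose by no more than the median of the listed genes. MAP3K12, the kinase DLK upstream of JNK, had 1932, 1750.3, 1689 and 1087 in PHLac-low and 1044, 1226, 1059 and 658 in PHLac-high and fell by 0.70 ± 0.078 (SE, log2, adjusted p = 0.000194 from limma). MAP3K6, the ASK1 relative ASK2, fell by 0.37 ± 0.081 (SE, log2, adjusted p = 0.00333 from limma), without overlap, but with the GC correction it was at 0.036 and did not pass.

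Further down, MAP2K3, which encodes the kinase MKK3 that activates p38, had 3008, 4371, 3529 and 4073 normalised counts in PHLac-low and 7419.9, 8210.0, 6189 and 6832 in PHLac-high. The fractions were well apart, with a log2 change of 0.94 ± 0.090 (SE, adjusted p = 0.000109 from limma). MAP2K1, which encodes MEK1 in the ERK branch, had 1406, 1567, 1522 and 1692 in PHLac-low and 1770.2, 1767, 1775 and 2272 in PHLac-high, a smaller rise of 0.29 ± 0.068 (SE, log2, adjusted p = 0.00445 from limma) without overlap. Of the MAPK genes, the p38 genes MAPK11 and MAPK12 fell, by 0.43 ± 0.10 (SE, log2, adjusted p = 0.00426 from limma) and by 0.32 ± 0.061 (SE, log2, adjusted p = 0.00193 from limma). Neither passed with the GC correction, under which MAPK11 was at -0.085 and MAPK12 at 0.045. They are neighbours on chromosome 22 (GENCODE 29, GRCh38), with MAPK12 at 50245450 to 50261825 and MAPK11 at 50263713 to 50270767, 1887 bases apart on the same strand. MAPK15, an atypical kinase, had 293, 313, 377 and 269 in PHLac-low and 175, 203, 197 and 136 in PHLac-high and fell by 0.82 ± 0.11 (SE, log2, adjusted p = 0.0005 from limma), without overlap, or by 0.44 with the GC correction. MAPK6, which encodes the atypical kinase ERK3, rose by 0.26 ± 0.057 (SE, log2, adjusted p = 0.00333 from limma), close to the listed median. MAPK3, MAP2K2, HRAS and NRAS were not analysed here.

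Both listed RSK genes, whose products are phosphorylated by ERK, fell. RPS6KA6, which encodes RSK4, had 429, 361, 341 and 338 normalised counts in PHLac-low and 208, 215, 105 and 233 in PHLac-high. It fell by 1.00 ± 0.18 (SE, log2, adjusted p = 0.00149 from limma), the largest decrease of the kinases, and the PHLac-high library of repeat 3 stood below the rest. RPS6KA2, which encodes RSK3, had 189, 194, 312 and 173 in PHLac-low and 122, 149, 273 and 82.1 in PHLac-high. Its fractions overlapped, and its log2 change was -0.57 ± 0.16 (SE, adjusted p = 0.00872 from limma). The scaffold genes MAPK8IP2 and MAPK8IP3, whose products hold the JNK relay together, and MAPKBP1, a JNK-binding protein, changed by -0.42, -0.45 and -0.43 on the log2 scale, with adjusted p from limma of 0.00401, 0.000508 and 0.00236. With the GC correction the decreases of MAPK8IP2 and MAPK8IP3 were lost (0.058 and 0.015) and that of MAPKBP1 was -0.21.

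The symbol rule also matched 3 noncoding transcripts, all with few reads (27 to 220 a library). RASAL2-AS1 starts 156 bases from RASAL2 on the opposite strand (GENCODE 29) and rose with it, by 1.06 ± 0.25 (SE, log2, adjusted p = 0.00421 from limma). Its values were 38.6, 38.2, 36.9 and 93.5 in PHLac-low and 94.7, 100.3, 104 and 103 in PHLac-high, so that the PHLac-low library of repeat 4 stood near the PHLac-high libraries. SPRY4-IT1 lies inside SPRY4 (RefSeq, GRCh38.p14, chromosome 5, 142317620 to 142318322). It had 61.7, 135, 106 and 138 in PHLac-low and 35.1, 38.5, 53.7 and 46.3 in PHLac-high. It fell by 1.27 ± 0.22 (SE, log2, adjusted p = 0.00119 from limma) while SPRY4 rose. MAP3K14-AS1, which overlaps MAP3K14 on the other strand, fell by 0.78 ± 0.24 (SE, log2, adjusted p = 0.0111 from limma). Its change was -0.49, -0.49, -0.47 and -1.70 by repeat and -0.48 without repeat 4. Libraries were strand-specific, but the sources used here do not say that counting used the strand. To which gene reads were assigned where SPRY4-IT1 lies in SPRY4, or where MAP3K14-AS1 overlaps MAP3K14, could not be checked. On chromosome 17 MAP3K14-AS1 spans 45247925 to 45268630 and MAP3K14 spans 45263119 to 45317145. Part of MAP3K14-AS1 thus lies outside MAP3K14. RASAL2-AS1 and RASAL2 do not overlap in GENCODE 29.

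Other genes of the pathway were taken from lists drawn up by role. Of 29 growth factor receptors and ligands, 11 were listed: 4 rose, of which EGFR was at -0.0085 under upper-quartile scaling, and 7 fell (median log2 change -0.27). The largest increase was in HBEGF, an EGF receptor ligand, with 1037, 1265, 1049 and 1153 normalised counts in PHLac-low and 2037, 2558, 3359 and 1948 in PHLac-high, a log2 change of 1.11 ± 0.13 (SE, adjusted p = 0.000249 from limma). FGF5 and EREG, growth factors of the FGF and EGF families, also rose, by 0.72 and 0.41, but neither passed under upper-quartile scaling (limma adjusted p = 0.109 and 0.130). FGF5 was lower in PHLac-high in repeat 4, with a log2 change of -0.35. PDGFB, a platelet-derived growth factor chain, changed by -0.68, and the receptors FGFR1 and FGFR4 by -0.44 and -0.35 (each past the limma threshold). FGFR1 was higher in repeat 1 (0.059) and did not pass with the GC correction (-0.27). FGFR4 was at -0.20 without repeat 4 and at 0.045 with the GC correction. Of 31 adaptors, exchange factors, RAF kinases and scaffolds 5 were listed, and all 5 rose. Under upper-quartile scaling FRS2 alone passed, with GRB2 at 0.031, PEA15 at 0.13, RRAS2 at 0.036 and PTPN11 at -0.010. The largest was FRS2, the adaptor of FGF receptors, with a log2 change of 0.57 ± 0.078 (SE, adjusted p = 0.000445 from limma), followed by PEA15, which holds ERK in the cytoplasm, with 0.35, and RRAS2, a RAS relative, with 0.26.

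Of 40 symbols of other early response genes, some of them older and newer names of 1 gene, 22 were listed. Of these 15 rose and 7 fell (median 0.41), and 9 of the 15 also passed as higher under upper-quartile scaling. HBEGF is counted here and among the growth factors, and LIF here and among the ERK targets below. ARC, an early response gene best known in neurons, had 444, 492, 352 and 204 normalised counts in PHLac-low and 1568, 1103, 1158 and 1230.0 in PHLac-high and rose by 1.82 ± 0.19 (SE, log2, adjusted p = 0.000153 from limma). ID2, an inhibitor of basic helix-loop-helix factors, rose by 0.98 ± 0.081 (SE, log2, adjusted p = 7.32e-05 from limma). The nuclear receptor genes NR4A1 and NR4A2 went the way of JUNB and DUSP1. NR4A2 had 8931, 6759.9, 5325 and 1709 in PHLac-low and 3823, 2835, 2107 and 829 in PHLac-high, and NR4A1 fell by 0.63 ± 0.071 (SE, log2, adjusted p = 0.000194 from limma). EDN1, which encodes endothelin-1, changed by -1.16, at 14 reads or more a library. Of 20 genes chosen as targets of ERK activity or as ETS factors 10 were listed, of which 7 rose and 3 fell (median 0.44), and 5 of the 7 also passed as higher under upper-quartile scaling. ETS2, a transcription factor phosphorylated by ERK, had 137, 202, 249 and 152 in PHLac-low and 566, 477, 617 and 624 in PHLac-high, a log2 change of 1.65 ± 0.16 (SE, adjusted p = 0.000117 from limma). ETS1 rose by 1.30 and the membrane protein gene EMP1 by 1.01, while the ephrin receptor gene EPHA4 changed by -0.51, KANK1 by -0.48 and the cytokine gene LIF by -0.27 on the log2 scale. LIF was at -0.11 and did not pass with the GC correction. Lists of this kind are read beside the table's own 58.7% higher and median of 0.25.

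Heat shock genes moved with the increases. All 12 genes on a heat shock and handling stress list were listed and all 12 rose (HSPB1 was at -0.015 under upper-quartile scaling), with a median log2 change of 1.29 and within-repeat medians of 1.48, 1.56, 1.14 and 0.90. HSPA6, HSPA1A and HSPA1B changed most, by 5.81, 2.23 and 2.23, and the reads of HSPA1A and HSPA1B, near-identical copies, may be divided between them by the counting. Their part in the changes of JUN, ATF3 and IER5 was not tested. Of 8 markers fixed for a pancreatic carcinoma line KRT19 was listed, with a mean normalised count of 18863. Of markers of other cells, COL1A1 and ACTA2 (fibroblasts; 2 of 6), PTPRC and CD14 (leukocytes; 2 of 5) and none of 3 endothelial or 4 acinar and islet markers were listed. COL1A1, ACTA2 and PTPRC ranged from 60.8 to 418 normalised counts a library and were lower in PHLac-high, while CD14 ranged from 307 to 1918 and was higher; their part in the results was not tested.

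Base composition differed between the genes that rose and those that fell. The median transcript GC content was 50.4% for the 25 members that rose and 59.7% for the 18 members that fell and have a transcript in GENCODE 29, beside 50.5% for the listed genes. With a correction of every library for GC content and transcript length, and the block, 35 of 43 members passed in the same direction, beside 71.0% of listed genes called in either direction. JUN then changed by 1.07, JUNB by -0.58, IER5 by 1.47, DUSP5 by 1.08, DUSP1 by -0.66 and MAP2K3 by 1.14 on the log2 scale. Of the other 8 members, 4 kept their direction without passing and 4 turned to positive values that did not pass. The upper quartile was taken over the listed genes alone, and was 2897 to 3068 in PHLac-low and 3376 to 3688 in PHLac-high. These genes were selected for this contrast, so whether whole libraries shift in this way was not tested. The GC and length correction was likewise fitted on listed genes alone. Whether it also took away part of the contrast itself was not tested. Upper-quartile scaling lowered every change by about 0.22. Under it 33 members were called, 14 higher and 19 lower, beside 64.4%, 23.2% and 41.2% of the listed genes, and the small increases of FOSB, IER3, FOSL2, EGR4, SPRY4, SPRED1, RASGRF1, MAP2K1, MAPK6 and MAP4K4 no longer passed. Median-of-ratios scaling called 38 members, beside 81.8% of the listed genes.

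**Figure D5:**
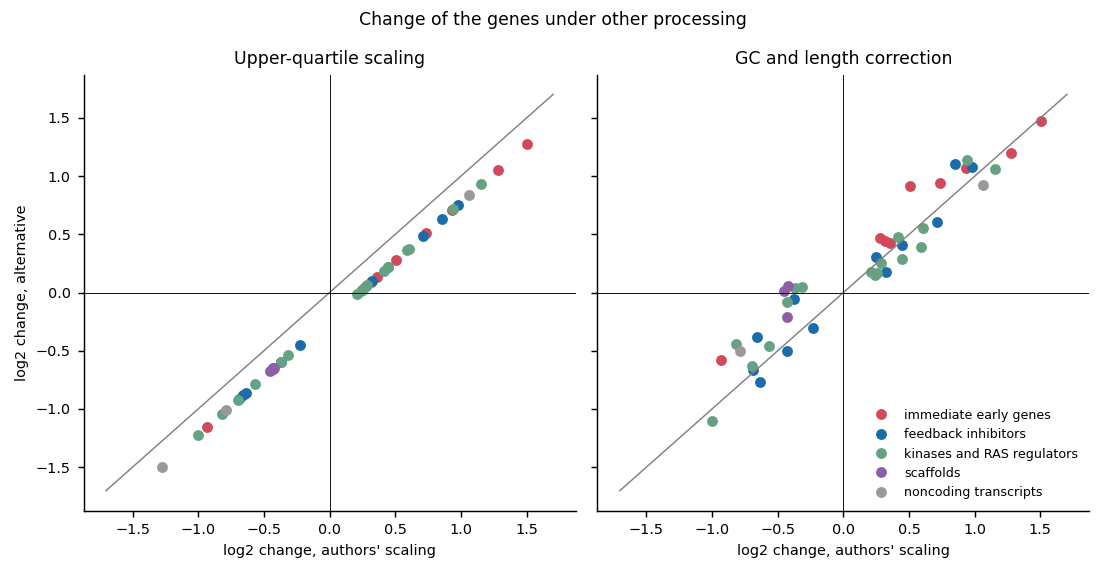
Log2 change of the members with the authors' scaling (horizontal) against the change after upper-quartile scaling (left) or after correction for GC content and length (right, 43 members), coloured by class, with the line of equality in grey. On the left every point lies about 0.22 below the line; on the right 4 genes that fell lie just above 0.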

How the data were processed

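RNA sequencing of 2 sorted fractions of MIA PaCa-2, PHLac-low and PHLac-high, gave 4 libraries of each, paired by repeat in the series text. Libraries were poly(A)-selected and strand-specific, per the labels' protocols. STAR, SAMtools, Subread, DESeq2 and the hg38 build are named in the submitters' processing notes; versions are not given in the sources used here. The authors deposited normalised counts (a signal in which reads are divided by a size factor), a log2 fold change and an adjusted p-value, for 3666 genes with no deposited p-value above 0.05. Only genes the authors called are therefore described. All values came out as whole reads (tolerance 0.01) after a size factor from 0.755 to 2.09; edgeR 4.0.16 and DESeq2 1.42.0 on those reads each called 3666 genes.

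Changes were estimated from log2(value + 1), which understates changes of low genes, with limma 3.58.1 (trended prior, repeat as block) and Benjamini-Hochberg adjustment over all listed genes at 0.05. Deviations of libraries with the same repeat number correlated at 0.53, 0.66, 0.73 and 0.76. Median-of-ratios and upper-quartile scaling, a pseudocount of 0.1, a mean count of at least 100, no block, each repeat left out, and a lowess correction (span 0.3) for GC content and length of GENCODE 29 transcripts (3509 genes, 95.7%; 43 members) were tried. The procedure was run on simulated data in which most genes did not change. All genes in the authors' table had been called by them, so the simulated setting differs from that table. The median-of-ratios and upper-quartile scalings and the GC and length correction were computed from the listed genes alone. Positions were found for 43 members in GENCODE 29.

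The members and lists were chosen with earlier results of these data known. Library values are given for the 4 largest increases and decreases of each class, a list of core genes, and, from the other lists, some of the 3 largest changes in each direction, which are named in full. Values of FOSB, EGR4 and the noncoding transcripts were added after they were seen.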

Additional observations from a re-analysis of the deposited data

Results flagged for a closer look

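Among 88 groups of 4 values (44 genes in 2 fractions, log2 values), 6 held a library that stood apart from the other 3, with a gap to the nearest of them, as a share of the group's range, above Dixon's critical value. Chance flags about 4.4 of 88. In PHLac-low these were RASAL2-AS1 in repeat 4 (0.953), high, and IER3 in repeat 1 (0.955), low. In PHLac-high SPRY2 (0.9) and MAPK11 (0.899) were low in repeat 4, MAP2K1 was high in repeat 4 (0.981), and RPS6KA6 was low in repeat 3 (0.858). Of the 6, 4 were in repeat 4.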

How the results depend on the processing

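Of the 44 members, 39 kept their direction in all 12 alternatives tried and 20 passed in every alternative in which they were fitted. Without the replicate block, limma called 1135 listed genes (743 higher, 392 lower) and 21 members (14 higher, 7 lower); the pairing is stated by the series text. Upper-quartile scaling moved the median of all listed genes by -0.22, called 2360 of them (850 higher, so that 36.0% of calls were higher against 58.8%) and 14 members higher. Median-of-ratios scaling moved that median by -0.12, with 49.6% of calls higher and 38 members called. The GC and length correction called 878 listed genes and 11 members lower. The median of kinases and RAS regulators was 0.016 under upper-quartile scaling, 0.12 under median-of-ratios scaling and 0.16 under the GC correction. That of feedback inhibitors was -0.22, -0.11 and 0.063, and that of immediate early genes was 0.28 under upper-quartile scaling and 0.92 under the GC correction. With each repeat left out these 3 medians ran from 0.21 to 0.27, from -0.036 (without repeat 1) to 0.040, and from 0.32 to 0.74 (without repeat 4), and 41 to 44 members passed: FOSL2, EGR4 and SPRY4 were lost without repeat 1 and EGR4 without repeat 2. Direction reversed, without passing, for MAP3K6 (0.036), MAPK8IP3 (0.015), MAPK12 (0.045), MAPK8IP2 (0.058) and the receptor gene FGFR4 (0.045) under the GC correction, and for MAP3K4 (-0.013) under upper-quartile scaling. The cause was not tested. The mean count minimum left 40 members.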
